A study of Mus musculus with 2 samples.

Results

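The enzymes that carry single carbons on folate were followed in the livers of mice lacking Pnpla8, a phospholipase A2 of the patatin-like family, and of wild-type mice. The 8 genes were chosen by name: the cytosolic enzymes Shmt1, Mthfd1, Aldh1l1, Ftcd and Tyms and the mitochondrial enzymes Shmt2, Mthfd2 and Mthfd1l. They were represented by 10 probes, each spotted 1 time on each array, among 31044 gene or transcript names on the array. All 8 names matched a gene name in the scanner files.

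RNA of Pnpla8-/- livers and of WT livers, both from C57BL/6N mice, was labelled with Cy3 and hybridised to 2 one-colour Agilent arrays on 1 slide, 1 array per genotype. Each array held equal amounts of RNA from 5 animals. The sample labels give the age as 6 weeks and the series design text as 8 weeks, so the age is not settled. The labels call the knockout -/- and name no allele, tissue-specific deletion or treatment. With 1 pooled array per genotype there was no replicate, no test across samples and no p-value, and genotype, pool and array position cannot be told apart. Ratios were therefore read against a fixed size of 2-fold.

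Tetrahydrofolate accepts a carbon from serine, glycine, histidine, formate or the methyl groups of dimethylglycine and sarcosine, and hands it on to purines, thymidylate or the remethylation of homocysteine. The cytosol and the mitochondrion hold parallel sets of these enzymes, joined mainly by serine, glycine and formate. In liver the pathway also disposes of surplus carbons: formyltetrahydrofolate is oxidised to carbon dioxide, and histidine breakdown ends on tetrahydrofolate. The series title concerns choline from phosphatidylcholine as a methyl source for the methionine cycle, and choline oxidation also delivers carbons to folate, through dimethylglycine and sarcosine.

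Sequences of 4 probes are shown because they bear on how far a ratio can be trusted. Shmt1 and Mthfd1l each had a pair of probes at separate positions. The files assign the Shmt1 pair to 1 transcript and the Mthfd1l pair to different transcripts. In the mm9 build named in the file headers, the Shmt1 probes lay on the minus strand of chromosome 11, at chr11:60603099-60603158 and chr11:60620453-60620512, with 17294 bases between them. The Mthfd1l probes lay on the minus strand of chromosome 10, at chr10:6190563-6190622 and chr10:6198416-6198475, with 7793 bases between them. The Mthfd1 probe lay on the plus strand at chr12:77418622-77418681. No gene annotation of mm9 was used here, so exon and untranslated positions are not given. The sequences below run 5′ to 3′ in the sense of the transcript. In the Mthfd1 and Mthfd1l lines, capitals mark the bases that are identical when both are laid side by side without gaps.
Shmt1 A_52_P673499: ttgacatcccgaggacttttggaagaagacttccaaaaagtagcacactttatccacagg
Shmt1 A_55_P2186584: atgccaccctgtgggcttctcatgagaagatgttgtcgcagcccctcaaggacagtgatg
Mthfd1 A_51_P392928: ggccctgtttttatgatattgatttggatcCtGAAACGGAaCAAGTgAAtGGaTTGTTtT
Mthfd1l A_55_P2000280: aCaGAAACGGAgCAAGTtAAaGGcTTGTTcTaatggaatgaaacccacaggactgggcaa

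The Mthfd1 and Mthfd1l probes matched at 24 of 31 overlapping bases, which shows the relatedness of the cytosolic and mitochondrial synthetases at the sequence level. Their longest identical stretch was 8 bases of the 60 in each probe. Whether either probe also bound the other gene's transcript was not tested.

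Pnpla8 itself read 4.45 in the Pnpla8-/- pool, not well above background, and 144.5 in the WT pool, at least 6.81-fold lower. The labels do not give the deleted part of the gene, and a probe outside it would check nothing. Of 43020 spots that were not controls, 65.6% on the Pnpla8-/- array and 70.1% on the WT array stood well above background.

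Of the 10 probes, 9 were well above background on both arrays, and these covered 7 of the 8 genes. The remaining probe, for Mthfd2, was well above background in the WT pool alone. No probe was saturated and none carried an outlier mark. The processed signals, given below in the scanner's linear units before any scaling, are those of the Pnpla8-/- array and of the WT array. Ratios were taken after each array was divided by its own 75th percentile, which multiplies every raw Pnpla8-/- over WT ratio by 1.19 (0.25 on the log2 scale). A raw signal slightly lower in the Pnpla8-/- pool can therefore go with a scaled ratio above 0.

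**Figure D1:**
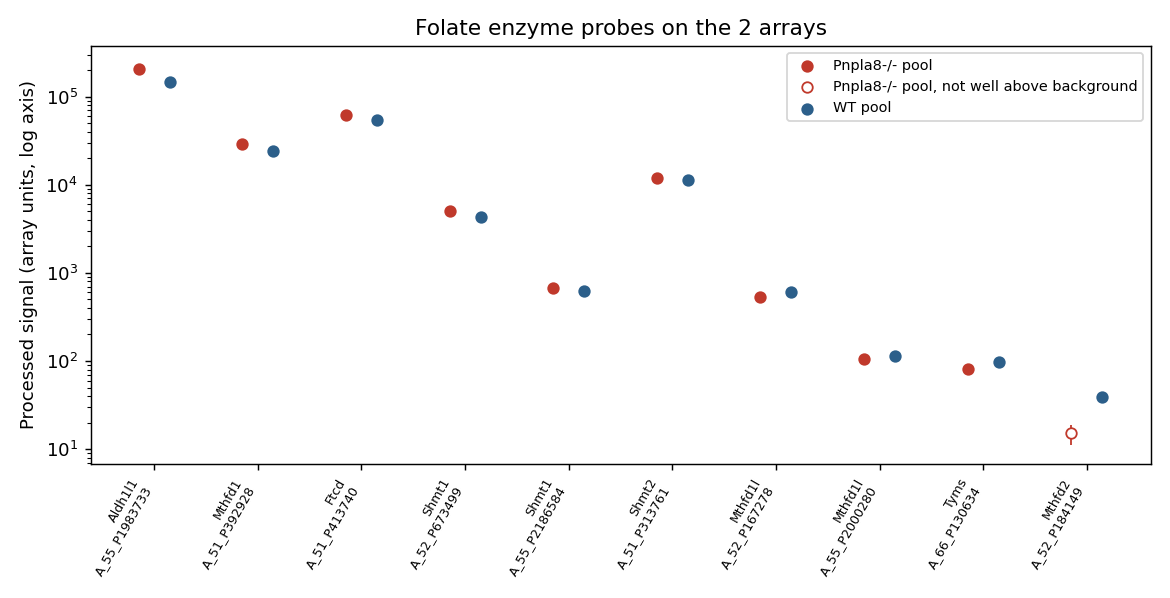
Processed signal of the 10 folate enzyme probes (log axis, scanner units, before scaling) on the Pnpla8-/- array (left point of each pair) and the WT array (right point). Bars are Feature Extraction's own error of the signal and are mostly smaller than the points; the open circle marks Mthfd2 on the Pnpla8-/- array, 15.1, which was not well above background.

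None of the 7 folate enzymes measured on both arrays reached 2-fold in either direction. Of all 19394 genes so measured, 3.16% passed 2-fold (1.3% higher in the Pnpla8-/- pool and 1.85% lower), so 0 of 7 is near the background. The ratios were spread among the members. Aldh1l1, Mthfd1, Ftcd, Shmt1 and Shmt2 lay between 0.33 and 0.75 on the log2 scale, Mthfd1l and Tyms lay near 0, and Mthfd2 was the single member not well above background in the Pnpla8-/- pool. Of the 7, 6 were above 0, against 56.7% of all measured genes. At the smaller size of 1.5-fold 1 member was higher, Aldh1l1, against 4.42% of all measured genes. The median of the 7 measured members was 0.42, or 0.37 with Mthfd2 at its bound, against a median of 0.04 over all measured genes. This range of 7 ratios describes these 2 arrays, and its spread between animals is unknown.

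Among the cytosolic enzymes, Aldh1l1 had the highest ratio. It encodes formyltetrahydrofolate dehydrogenase, an abundant liver enzyme that oxidises the formyl group to carbon dioxide and returns free tetrahydrofolate. Its probe (chr6:90549091-90549150, plus strand, mm9) read 208955 in the Pnpla8-/- pool and 147443 in the WT pool. After scaling this was 1.68-fold higher, a log2 ratio of 0.75 with a Feature Extraction error of 0.20. Of all measured genes 2.60% had a ratio at least as high. Aldh1l1, Mthfd1 and Ftcd belonged to decile 10 of genes by mean signal, the brightest, where the median ratio was 0.12. Within that decile 95.1% of genes had a lower ratio than Aldh1l1, 91.0% than Mthfd1 and 88.4% than Ftcd. Over all measured genes these shares were 97.4%, 94.3% and 92.1%, so the genes stood out less among bright genes.

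Mthfd1 had the next ratio in this processing. Its product joins dehydrogenase, cyclohydrolase and formyltetrahydrofolate synthetase activities in 1 cytosolic protein and so connects formate, formyl and methylene folates. Its signal was 29246 in the Pnpla8-/- pool and 24321 in the WT pool, a log2 ratio of 0.51 (1.43-fold higher, error 0.20). A ratio that high or higher was found in 5.71% of measured genes.

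Ftcd encodes formiminotransferase cyclodeaminase, which closes histidine breakdown by moving the formimino group to tetrahydrofolate. Its probe (chr10:76052237-76052296, plus strand, mm9) read 62408 in the Pnpla8-/- pool and 54760 in the WT pool, a log2 ratio of 0.43 (1.35-fold higher, error 0.20). The enzymes upstream of it in histidine breakdown had ratios on the same side of 0. Hal, histidine ammonia-lyase, read 49401 in the Pnpla8-/- pool and 29236 in the WT pool, a ratio of 2.003-fold. It stood at or above 2-fold under 8 of 13 processings. Hal has 1 probe, so the probe filters and summaries among these leave its ratio unchanged by construction. It fell below 2-fold with quantile, loess, spike-in or no scaling and with the normexp background. Without scaling its log2 ratio was 0.76. Uroc1, urocanase, had a log2 ratio of 0.54 and Amdhd1, imidazolonepropionase, of 0.38. Hdc, which turns histidine into histamine and belongs to another route, had -0.23.

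Shmt1 encodes the cytosolic serine hydroxymethyltransferase, which exchanges a carbon between serine and glycine. The brighter of the probes shown above, A_52_P673499, read 5000.03 in the Pnpla8-/- pool and 4344 in the WT pool, and A_55_P2186584 read 682.3 in the Pnpla8-/- pool and 620.1 in the WT pool. Their log2 ratios were 0.45 and 0.38, and the gene's value was 0.42 (1.33-fold higher). The probes differed by 0.07, less than the error of 0.20 on either. For comparison, different probes of 1 gene had a median SD of 0.10 over the array, and repeated spots of 1 probe a median SD of 0.05.

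Tyms encodes thymidylate synthase, which methylates deoxyuridylate for DNA synthesis and is high in dividing cells. Its probe (chr5:30385578-30385637, minus strand, mm9) was dim, at 80.1 in the Pnpla8-/- pool and 97.1 in the WT pool. The log2 ratio was -0.03 with an error of 0.22, and 61.9% of measured genes had a ratio at least as high. Its sign changed with the processing, being 0.03 with median scaling, 0.04 with quantile scaling and 0.05 with the normexp background. The ratio of Tyms was within its technical error of 0.

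Among the mitochondrial enzymes, Shmt2, the mitochondrial serine hydroxymethyltransferase and the main entry of serine carbons in that compartment, had the highest ratio. Its probe (chr10:126954811-126954870, minus strand, mm9) read 11959 in the Pnpla8-/- pool and 11282 in the WT pool, a log2 ratio of 0.33 (1.26-fold higher, error 0.20). From this technical error alone, the 95% limits of the Shmt2 ratio were -0.07 and 0.73, which include 0. So did those of the dimmer Shmt1 probe, -0.02 and 0.78. With the scaling used here, the limits of Aldh1l1, Mthfd1, Ftcd and the brighter Shmt1 probe lay above 0. Their lower ends were 0.35, 0.11, 0.03 and 0.05. The Ftcd limits included the median of all genes, 0.04. Those of Mthfd1 and Ftcd included the median of their decile, 0.12. Limits were not computed under other processings. Without scaling the log2 ratios were smaller: 0.50 for Aldh1l1, 0.27 for Mthfd1, 0.19 for Ftcd and 0.17 for Shmt1. The median of all genes was then -0.21. The cytosolic and mitochondrial isozymes Shmt1 and Shmt2 differed in ratio by 0.09, within their combined error of 0.29.

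Mthfd1l encodes the mitochondrial formyltetrahydrofolate synthetase, which releases formate to the cytosol. Its brighter probe, A_52_P167278, read 531.0 in the Pnpla8-/- pool and 608.1 in the WT pool, and the probe shown above, A_55_P2000280, read 105.9 in the Pnpla8-/- pool and 113.1 in the WT pool. The log2 ratios were 0.05 (error 0.20) and 0.15 (error 0.21), both within their technical error of 0. The gene's value was 0.10, close to the median of all genes. It was -0.15 without scaling and -0.06 with spike-in scaling.

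Mthfd2 encodes the mitochondrial methylenetetrahydrofolate dehydrogenase and cyclohydrolase, known for its high level in embryonic and tumour cells and its low level in adult tissue. Its probe (chr6:83256518-83256577, minus strand, mm9) read 15.1 in the Pnpla8-/- pool, not well above background, and 38.8 in the WT pool. The dimmest spot still well above background on the Pnpla8-/- array read 17.9, and with Mthfd2 set at that reading the bound was at least 1.83-fold lower. This bound leaves out the error of the signals, which was 26.1% on the Pnpla8-/- array and 12.6% on the WT array. The probe's own values gave a log2 ratio of -1.12 with an error of 0.42, so a smaller difference than the bound is possible. The bound passed 2-fold without scaling (at least 2.17-fold), with loess scaling (at least 2.02-fold) and with spike-in scaling (at least 2.05-fold). With the normexp background, which adds a constant to every signal, the values of the probe itself were 1.13-fold lower. Negative control spots read 4.28 on the Pnpla8-/- array and 3.51 on the WT array, a scaled difference of 0.53 on the log2 scale. Mthfd2, Tyms and the dimmer Mthfd1l probe lay closest to this level.

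**Figure D2:**
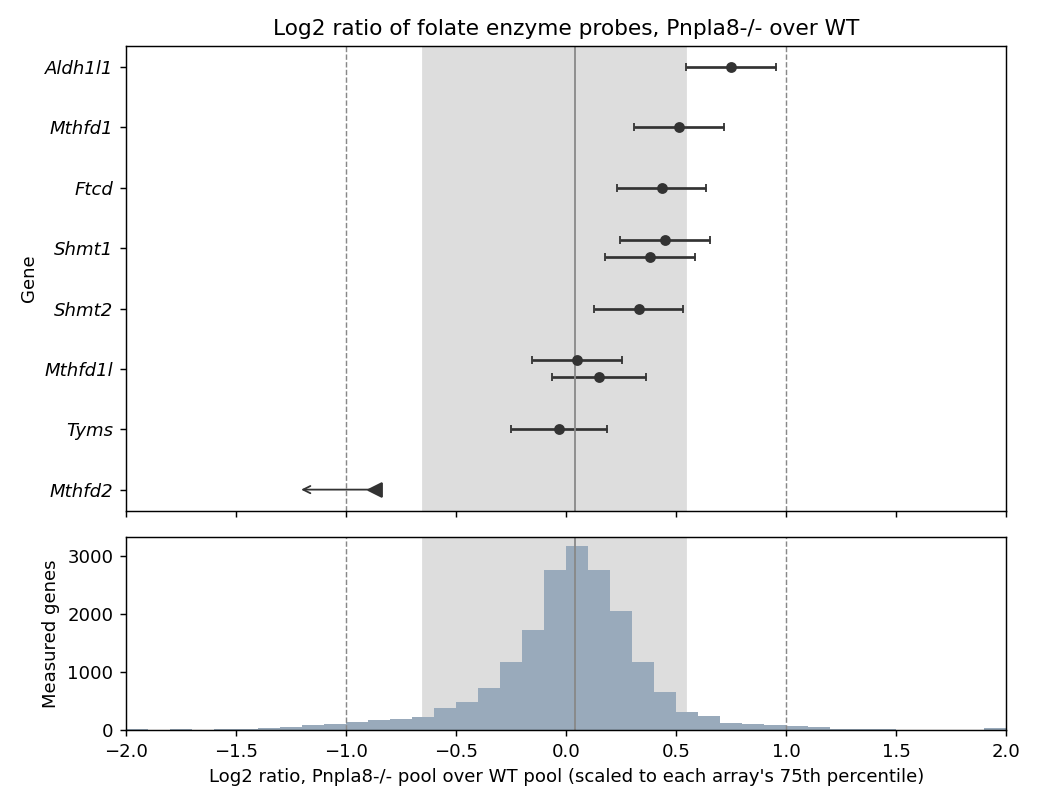
Upper panel: log2 ratio of Pnpla8-/- over WT for each folate enzyme probe, with bars of 1 Feature Extraction error; the triangle with an arrow is the bound for Mthfd2. Lower panel: number of measured genes per bin of 0.1, with genes beyond the axis added to the outermost bins. The grey band spans the 5th to 95th percentile of all measured genes (-0.65 to 0.54), the solid line is their median (0.04) and the dashed lines mark 2-fold; Aldh1l1, at 0.75, is the single member above the band.

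Read in order, the log2 ratios ran from Aldh1l1 (0.75) through Mthfd1 (0.51), Ftcd (0.43), Shmt1 (0.42), Shmt2 (0.33) and Mthfd1l (0.10) to Tyms (-0.03), with the bound on Mthfd2 below them. Shmt1 stood above Ftcd with loess scaling, quantile scaling or the brightest probe per gene, and above Mthfd1 with quantile scaling. Among the 7 measured genes, no neighbours in this order differed by more than their combined technical error. The widest of these gaps, from Aldh1l1 to Mthfd1, was 0.24 against an error of 0.29. From end to end, Aldh1l1 and Tyms differed by 0.78, which was 2.60 times their combined error of 0.30. The 2 synthetases, cytosolic Mthfd1 and mitochondrial Mthfd1l, differed by 0.41 with an error of 0.30. These errors come from the scanner software's error model and hold no variation between animals or pools. For the measured members the model gave close to 10% of each signal, at most 11.1%, whatever the probe. A gap below about 0.29 therefore falls within the error by construction, which does not show that the genes have equal ratios. Repeated spots of 1 probe had a smaller median SD, 0.05. The measured cytosolic members had a median of 0.43 over 5 genes and the mitochondrial members 0.21 over 2, groups too small to compare.

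The ratios moved with the choice of scaling: median, spike-in or no scaling shifts every gene by the same amount, and quantile and loess scaling by an amount that depends on signal. Aldh1l1 ranged from 0.50 to 0.81 over the 13 processings, Mthfd1 from 0.27 to 0.57, Ftcd from 0.19 to 0.49, Shmt1 from 0.17 to 0.48 and Shmt2 from 0.08 to 0.39. The lower end was in each case the unscaled data, in which the median of all genes was -0.21. Relative to the median of all genes, Aldh1l1 was 0.71 higher, Mthfd1 0.47, Ftcd 0.39, Shmt1 0.38, Shmt2 0.29 and Mthfd1l 0.06, while Tyms was at -0.07. Of the 7 genes, 6 lay above that median with 75th percentile, median, loess, spike-in or no scaling, and 7 with quantile scaling.

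The remaining folate enzymes, 18 genes listed by role, were mostly close to the median of all genes. Of these, 17 were measured, with a median log2 ratio of 0.10 (-0.15 without scaling and -0.07 with spike-in scaling), 11 above 0 (56.7% of all measured genes were) and none past 2-fold. The highest were mitochondrial enzymes of the routes that bring carbons from methylated glycines and from glycine to folate. Sardh, sarcosine dehydrogenase, read 43096 in the Pnpla8-/- pool and 29330 in the WT pool (1.74-fold higher). Gldc, the decarboxylase of the glycine cleavage system, read 11376 in the Pnpla8-/- pool and 7885 in the WT pool (1.71-fold higher). Dmgdh, dimethylglycine dehydrogenase, read 44974 in the Pnpla8-/- pool and 35035 in the WT pool (1.52-fold higher).

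The other parts of the glycine cleavage system had lower ratios than Gldc. Amt had a log2 ratio of 0.22 and Dld of 0.13 (both below 0 without scaling), Gcsh had 0.03, and the 3 Gcsh probes ranged from -0.40 to 0.11. The mitochondrial relatives of 2 members were low in signal. Mthfd2l, a relative of Mthfd2, had -0.05, and Aldh1l2, the mitochondrial counterpart of Aldh1l1, was well above background in the WT pool alone (5.03 in the Pnpla8-/- pool and 25.2 in the WT pool, at least 1.19-fold lower). Mtfmt, which formylates the initiator transfer RNA of mitochondria, had -0.03.

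In the cytosol, Fpgs, which adds the glutamate tail that retains folate in cells, had a log2 ratio of 0.46, and Ggh, the hydrolase that removes the tail, had -0.41. Methionine synthase, Mtr, had -0.02 and its reductase, Mtrr, -0.03 (0.18 with normexp). Mthfs had a log2 ratio of 0.10. Atic (0.14) and Gart (0.07), the purine enzymes that consume formyl folate, lay near the median of all genes.

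Of the 5 genes for folate uptake, 1 passed 2-fold, against 3.16% of all measured genes. Folr2, the folate receptor found on macrophages, read 1290 in the Pnpla8-/- pool and 3361 in the WT pool and was 2.198-fold lower, past 2-fold under all 13 processings. Slc25a32, which carries folate into mitochondria, read 1508 in the Pnpla8-/- pool and 1004 in the WT pool (1.78-fold higher). Slc19a1, the reduced folate carrier, had a log2 ratio of 0.48, Slc46a1, the proton-coupled folate transporter, -0.06 and Folr1 -0.48 (-0.02 with normexp; its signals of 36.6 in the Pnpla8-/- pool and 60.5 in the WT pool were dim). Folr2 lay on the same side of 0 as the Kupffer cell and macrophage markers, which is 1 comparison and not a shared pattern over samples. Of these markers 11 of 11 were below 0, against 8388 of all 19394 measured genes. At least 2-fold lower were 5 of them (11 without scaling), against 1.85% of all measured genes. Their log2 ratios ran from -1.34 to -0.82, with a summed scaled level of 46.2 in the Pnpla8-/- pool and 96.9 in the WT pool. In whole liver, fewer cells of a type and less RNA per cell cannot be told apart, and the part of macrophages in the Folr2 ratio was not tested.

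The pathways that take up or supply the carbons were read from further lists. Of 12 purine synthesis genes 10 were above 0 and none passed 2-fold, against 56.7% and 3.16% of all measured genes, with a median of 0.15 that was -0.09 without scaling and -0.01 with spike-in scaling. Prps1 had 0.27, Ppat, the first committed enzyme, 0.27 and Paics 0.27, and Impdh1 had -0.50. Of 8 genes for thymidylate and deoxynucleotide supply, 7 were measured with a median of -0.25 and none passed 2-fold; the median was -0.03 with normexp and -0.01 with the brightest probe per gene. Within it Rrm2, the ribonucleotide reductase subunit of dividing cells, had -0.70, Dtymk -0.37 and the dim Rrm2b 0.38 (-0.02 without the filter on dim probes). Tk1, thymidine kinase, stood on the other side at 0.66 (9943 in the Pnpla8-/- pool and 7452 in the WT pool).

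Serine synthesis and serine breakdown lay on opposite sides of 0. Psat1, the transaminase of serine synthesis, read 72.5 in the Pnpla8-/- pool and 335.9 in the WT pool and was 3.91-fold lower (2.47-fold with normexp). Its partners had log2 ratios of -0.60 (Phgdh, whose measured probes read -1.03 and -0.17) and -0.51 (Psph). Sds, the dehydratase that breaks serine down, read 38069 in the Pnpla8-/- pool and 16383 in the WT pool and was 2.75-fold higher. Gnmt, which methylates glycine to sarcosine, the substrate of Sardh, read 162179 in the Pnpla8-/- pool and 100922 in the WT pool, a log2 ratio of 0.93. Glyctk had 0.12 and Glyat -0.16, and 7 of the 9 genes on this list were measured.

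**Figure D3:**
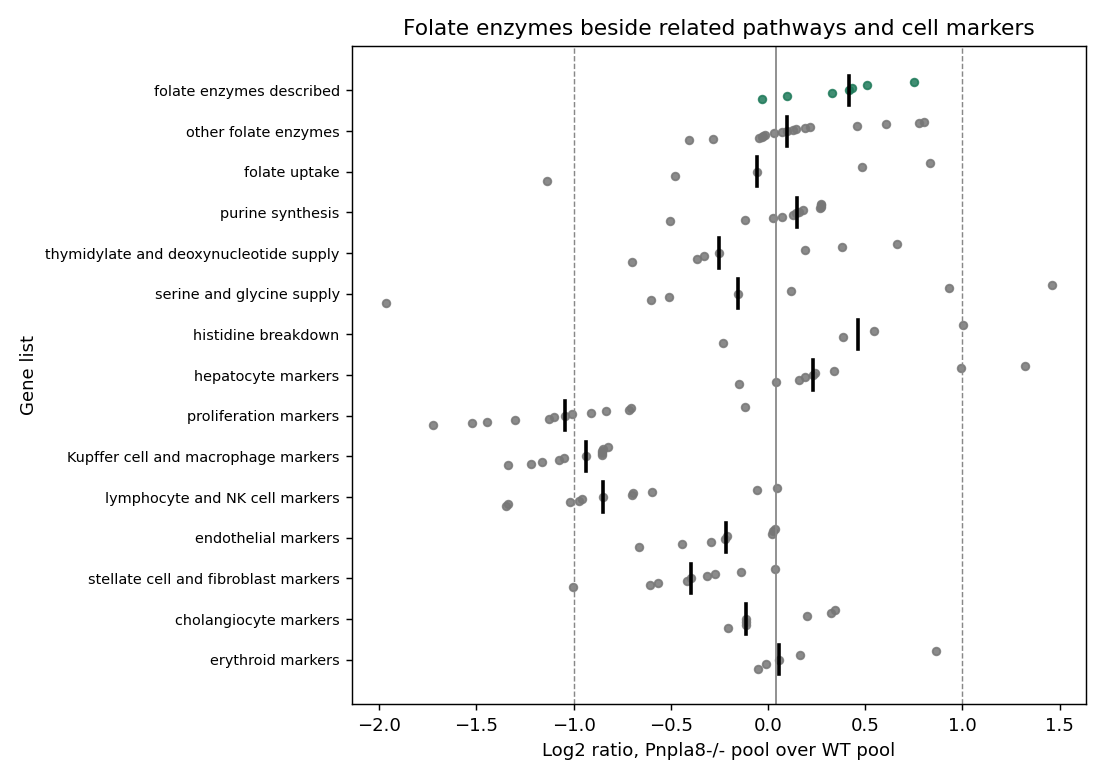
Log2 ratio of Pnpla8-/- over WT for each measured gene of the folate enzymes (green) and of the related pathway and cell marker lists (grey), with the median of each list (thick bar), the median of all genes (solid line) and 2-fold (dashed lines). The folate enzymes have a median of 0.42; proliferation markers (-1.04) and macrophage markers (-0.93) lie lowest.

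Cell markers were measured on the same arrays. Hepatocyte markers were bright, with albumin (Alb) at 392982 in the Pnpla8-/- pool and 393769 in the WT pool, and had a median of 0.23 over 9 measured genes (-0.02 without scaling); Tat was past 2-fold (2.50-fold higher). Of all 19394 measured genes, 8388 were below 0 and 1.85% were at least 2-fold lower. Proliferation markers had a median of -1.04, with 13 of 13 measured genes below 0. Of these, 8 were at least 2-fold lower, among them Mcm5 (3.31-fold) and Top2a (2.88-fold). With normexp 2 were at least 2-fold lower, the median was -0.71, and Top2a was 1.52-fold lower. Their summed scaled level was 11.3 in the Pnpla8-/- pool and 18.5 in the WT pool, and Aurkb was not well above background on either array. Lymphocyte and NK cell markers had a median of -0.85, with 10 of 11 below 0 and a range from -1.35 to 0.04. At least 2-fold lower were 3 of them, and 0 with normexp. Their median was -0.39 with normexp and -0.42 among probes above the array median. Their summed level was 2.70 in the Pnpla8-/- pool and 3.66 in the WT pool. Stellate cell and fibroblast markers had -0.40, endothelial markers -0.22, cholangiocyte markers -0.11 and erythroid markers 0.05. Mthfd2, Tyms and Rrm2 are known to be high in dividing cells. Mthfd2 and Rrm2 lay on the same side as the proliferation markers and Tyms near 0, and the part of dividing cells in these ratios was not tested.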

How the data were processed

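Total RNA was labelled with Cy3 from 200 ng, per the labels' protocols, and the submitters' processing notes name Agilent Feature Extraction, version 11.5.1.1, for the authors' spot extraction. The scanner files hold linear intensity per spot, as background-subtracted processed signal and as raw means, per the file headers, which name the mm9 build. In the deposited value table the intensity is the processed signal divided by 1018.65 (Pnpla8-/-) or 1207.25 (WT). Its column medians are 0.0763 and 0.0800, it is on a linear scale without centring, and the rule behind the divisors is not stated. The divisors are close to the 75th percentiles used here, 1018.24 (Pnpla8-/-) and 1206.98 (WT). As an alternative processing, the value table therefore nearly repeats the main scaling. Unused per-sample columns numbered 0.

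Samples were grouped by the genotype label. Values are log2 processed signals less the log2 of the array's 75th percentile, taken without control spots (1018 in Pnpla8-/-, 1207 in WT). Spots with a feature or background outlier mark on either array were left out (913 marked on the Pnpla8-/- array, 896 on the WT array). Probes were named by RefSeq accession (28330), name (2204) or synonym (174) in the GRCm38.p6 gene table, used for names alone; 8721 kept the file's name. A gene's ratio is the median over probes well above background on both arrays. A gene above background on 1 array was given a bound, which leaves out the error of the signals. The error of a ratio combines Feature Extraction's relative errors of both signals.

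No test was made, as each group is 1 array. The members and lists were chosen with earlier results of these data known. The rule names all members, every folate, uptake and histidine gene listed, and from other lists up to 4 genes with the largest ratios and genes past 2-fold. Glyctk, Glyat, Psph, Alb, Aurkb, Agxt, Sdsl and Cyp2e1 fall outside it and were chosen after their values were seen. Some listed genes are not reported here. Probes were to be printed where they translate to the RefSeq protein; with no protein table used here, the paired Shmt1 probes and the related Mthfd1 and Mthfd1l probes were printed. Alternatives were 4 other scalings and none, normexp with an offset of 50, the value table, probe filters and summaries, and other thresholds. Python 3.11.15, pandas 2.3.3, numpy 2.4.6, statsmodels 0.14.6 (loess, span 0.3) and limma 3.58.1 in R 4.3.3 were used, and the steps were tested on simulated data.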

Additional observations from a re-analysis of the deposited data

How the results depend on the processing

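No measured folate enzyme was past 2-fold higher under any of the 12 other processings, and none past 2-fold lower except Mthfd2 (1 gene) when dim probes were not filtered, where its own values gave -1.12, beside its bound under other scalings given above; at a threshold of 1.5-fold 1 gene, Aldh1l1, was higher. The median of the measured folate enzymes, 0.42, was 0.17 without scaling, 0.25 with spike-in scaling, 0.26 with quantile scaling and 0.30 with loess scaling. Over all genes, 253 higher and 359 lower became 114 and 746 without scaling, 138 and 593 with spike-in scaling, 131 and 124 with normexp, 978 and 1215 without the filter on dim probes, 141 and 215 among probes above the array median, 857 and 1163 at 1.5-fold, and 58 and 53 at 3-fold. Mthfd1l turned to -0.15 without scaling and -0.064 with spike-in scaling, and Tyms to 0.028 with median scaling, 0.037 with quantile scaling and 0.054 with normexp. List medians turned as follows. Without scaling they were -0.016 for hepatocyte markers, -0.15 for other folate enzymes, -0.095 for purine synthesis and -0.19 for erythroid markers. With spike-in scaling other folate enzymes were at -0.067, purine synthesis at -0.013 and erythroid markers at -0.11. Erythroid markers were at -0.034 with quantile scaling and -0.036 with loess. Folate uptake was at 0.0022 with median scaling and 0.24 among probes above the array median, cholangiocyte markers at 0.12 with normexp, and serine and glycine supply at 0.12 with outlier-marked spots kept. Median, spike-in and no scaling shift all ratios by a constant by construction; the cause of the other changes was not tested. No paired analysis was possible because each genotype has 1 array, and no replicate could be left out. Signal over background limits the dim genes, among them Mthfd2, Tyms, Aldh1l2, Folr1, Mtrr, Rrm2b, Psat1 and Top2a.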

Other observations

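Agxt, alanine-glyoxylate aminotransferase, and Sdsl, a relative of serine dehydratase, belong to the serine and glycine list but were left out because their spots carry a local background mark. With such spots kept, Agxt read 83793 in the Pnpla8-/- pool and 59019 in the WT pool, a log2 ratio of 0.75, and Sdsl 7004 in the Pnpla8-/- pool and 5708 in the WT pool, a log2 ratio of 0.54. Cyp2e1, a pericentral hepatocyte marker left out for the same reason, had a log2 ratio of 0.38 in that setting.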
